A study of Drosophila melanogaster with 3 samples.

Results

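The 10 genes described here make, export and clear the ecdysteroids, the steroid hormones that time moulting and metamorphosis in insects. They were taken from 13945 protein-coding genes as a fixed list of names. For each gene the gene body and the 2 kb upstream of it were searched for summits of Methoprene-tolerant (Met) peaks in the dm6 build. phm, dib, sad, spo, spok, nvd and sro form the synthesis class of 7 genes. Their enzymes work in the prothoracic gland of the larva, except that of spo, the embryonic counterpart of spok. shd, Cyp18a1 and E23 form a class of 3 genes that act in peripheral tissue. The rule uses no measured value, but the list was chosen with earlier results of these data known. phm is listed in the annotation as phtm and was matched by its gene identifier.

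Met is the bHLH-PAS receptor for juvenile hormone. Its sites on chromatin were mapped by ChIP-seq, immunoprecipitation followed by sequencing, in Drosophila melanogaster at the white prepupa stage, when the puparium has just formed. The chromatin came from whole animals of both sexes pooled, all of 1 transgenic line that stably expressed Met with green fluorescent protein (GFP) fused to its C-terminus. Chromatin was sonicated to 200 to 800 bp and Met was recovered through its tag with an anti-GFP antibody. There was 1 group of 3 biological replicates, so no condition was compared with another and no p-value was computed, and library depth is unknown. The labels give neither the promoter that drives the transgene nor whether the animals still made untagged Met. Peak lists hold no expression values, so the presence of prothoracic gland cells could not be checked by their markers. In whole animals, few cells of a type and weak binding in each of them cannot be told apart, which touches above all the genes used in 1 small gland.

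Every deposited relaxed list, 1 a replicate and 1 pooled, stops at 30000 peaks. A further list holds 8513 peaks thresholded by the irreproducible discovery rate (IDR). These coincide with the top 8513 of the pooled list by signal, so a place among them does not by itself mean that each replicate had the peak. Rank 1 is the strongest peak of a list. The signal is the authors' own value for a peak and is compared here only within a list. The lowest signal was 98.7 in the IDR set and 24.9 in the pooled list.

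Ecdysteroids are made from dietary sterols by a chain of enzymes in the prothoracic gland, mostly cytochrome P450s known as the Halloween enzymes, and are secreted as ecdysone. Peripheral tissues turn ecdysone into the active hormone, take it up and pump it out by transporters, and inactivate it by oxidation. Juvenile hormone acts through Met and its paralog, and the balance between it and ecdysteroids decides whether a moult leads to a larva or to metamorphosis.

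The sequences of the summits that carry the results are shown first, each for 1 kind of peak. The strongest upstream peak of E23 is shown because it holds the palindromic E-box CACGTG, a site that bHLH proteins bind. The second upstream peak and the strongest intronic peak of E23 are shown as strong peaks without it. The shd summits are both peaks of that gene in the IDR set, together with its next peak below the threshold, which holds the C-box CACGCG. All are in dm6, read from the RefSeq Release 6 assembly along the strand of the gene. The E23 windows lie on the minus strand at chr2L:3354959-3355059 (peak A), chr2L:3355162-3355262 (peak B) and chr2L:3346275-3346375 (intronic). The shd windows lie on the plus strand at chr3L:14615366-14615466 (intronic), chr3L:14613763-14613863 (upstream) and chr3L:14613999-14614199 (upstream, below the threshold). Capitals mark the E-box in E23 peak A, GCGTG (the core shared by bHLH-PAS sites) in the intronic shd peak and the C-box in the last.
E23 peak A: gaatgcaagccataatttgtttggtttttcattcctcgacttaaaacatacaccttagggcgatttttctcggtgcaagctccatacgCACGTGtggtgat
E23 peak B: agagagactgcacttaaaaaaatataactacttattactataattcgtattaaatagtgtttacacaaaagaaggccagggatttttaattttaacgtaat
E23 intronic: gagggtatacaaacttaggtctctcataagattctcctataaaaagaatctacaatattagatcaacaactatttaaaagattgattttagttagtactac
shd intronic: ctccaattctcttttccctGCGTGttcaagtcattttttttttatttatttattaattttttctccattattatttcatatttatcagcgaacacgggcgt
shd upstream: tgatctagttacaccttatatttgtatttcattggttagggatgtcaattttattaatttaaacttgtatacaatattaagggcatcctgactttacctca
shd below threshold: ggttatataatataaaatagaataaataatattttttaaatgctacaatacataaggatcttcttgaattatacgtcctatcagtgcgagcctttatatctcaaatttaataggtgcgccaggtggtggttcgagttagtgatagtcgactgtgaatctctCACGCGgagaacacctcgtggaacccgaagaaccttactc

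The E-box of E23 lay at 3354966 to 3354971 of 2L, 137 to 142 bp upstream of the annotated start of the gene. It was 40 bp from the pooled summit, and 73, 68 and 40 bp from the summits in replicates 1, 2 and 3. The E-box CACGTG, its variants with the letters CAGCTG or the letters CATATG, the C-box CACGCG and the core GCGTG were searched on both strands within 50 bp of each summit. A C-box always holds the core on its other strand. Among the 9 IDR summits at the 10 genes, 1 had an E-box, that of E23, and 1 had a GCGTG, 29 bp from the intronic shd summit. The other 7 had none of the 5 motifs in these windows. Of all 8513 IDR summits, 67 had an E-box (0.787%), 121 a C-box (1.42%), 598 a GCGTG (7.02%), 247 a CAGCTG (2.90%) and 330 a CATATG (3.88%). The C-box of shd, at 14614160 to 14614165 of 3L, was 63 bp from its summit. It thus lay outside the 50 bp searched, at a peak outside the IDR set. That sequence is therefore shown over 100 bp to each side of the summit. Within 100 bp, 3.17% of all IDR summits had a C-box. The E23 summits ranged from 21.8% to 50.5% G+C over 101 bp, and the shd summits in the IDR set had 29.7% (intronic) and 28.7% (upstream). The median over all IDR summits was 31.7%, with quartiles of 26.7% and 38.6%.

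Met peaks in the IDR set were at E23 and shd and at none of the 7 synthesis genes. The synthesis genes had 0 IDR peaks in 133.613 kb of gene and upstream sequence, and the peripheral genes had 9 in 38.208 kb, 7 at E23 and 2 at shd. In the pooled relaxed list the synthesis genes had 3 peaks, all at phm, and 6 of the 7 had none. The peripheral genes had 23 pooled peaks, with 14 at E23, 8 at shd and 1 at Cyp18a1. Some pooled peaks at phm, E23 and shd overlap each other, so the counts are of summits and not of separate sites. Per 100 kb there were 2.25 pooled peaks at synthesis genes, 60.2 at peripheral genes and 22.4 over the major chromosome arms. For IDR peaks the values were 0, 23.6 and 6.36 per 100 kb. Of the 133.613 kb at synthesis genes, 112.467 kb belonged to nvd and spok, which are long and rich in repeats. Without nvd and spok, the other 5 synthesis genes had 0 IDR peaks and 14.2 pooled peaks per 100 kb. This rests on only 21.146 kb. Without E23, the other peripheral genes had 2 IDR peaks, both at shd. The difference between the classes was not tested.

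In all, 2 of the 10 genes had an IDR peak and 4 had a pooled peak. Of all protein-coding genes 28.7% had an IDR peak and 45.8% a pooled peak by the same rule, so the 10 genes as a whole lay near the background. Counted over gene bodies alone, 2 of the 10 genes had an IDR peak, against 14.8% of all coding genes. By the 8513 strongest peaks of each replicate, 2, 3 and 2 of the 10 genes had a peak in replicates 1, 2 and 3, against 31.9%, 29.7% and 31.1% of all coding genes. E23 and shd were among them in every replicate, and phm was added in replicate 2. The relaxed lists of replicates 1, 2 and 3 had a peak at 5, 3 and 4 of the 10 genes, against 51.9%, 48.4% and 50.8% of all coding genes.

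**Figure D1:**
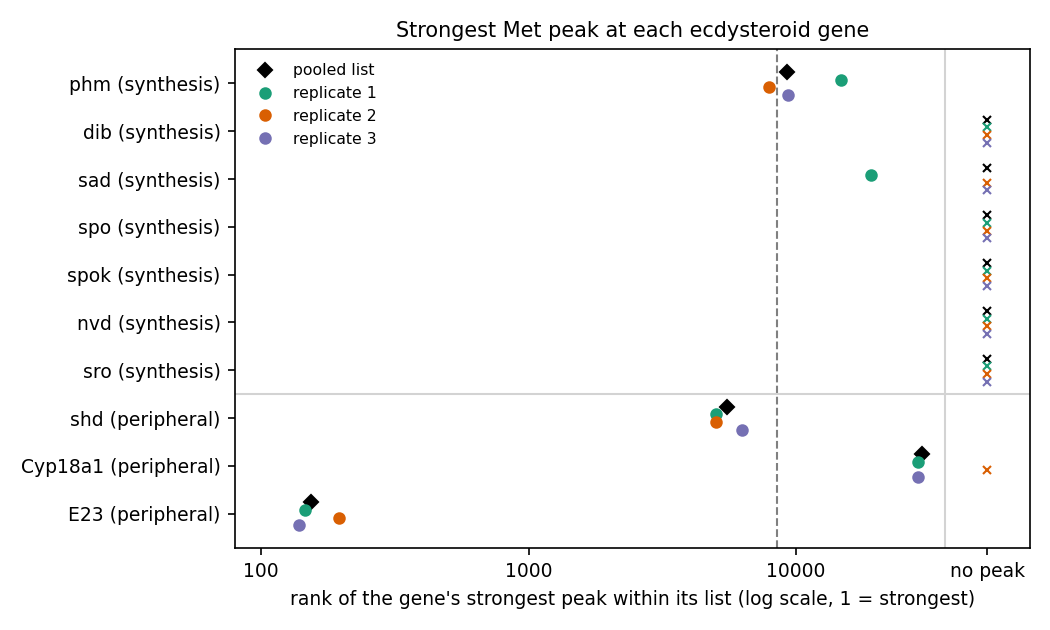
Rank of the strongest peak at each gene in the pooled list and in the 3 replicate lists (log scale), with crosses for lists that hold no peak at the gene and a dashed line at rank 8513, the end of the IDR set. E23 stands near the top of every list, shd stands left of the line in every list, and dib, spo, spok, nvd and sro have no peak in any list.

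The share of genes with a peak rises with gene length, so each gene was read against coding genes of its own length. phm, dib, sad, spo and sro are 1 to 3 kb long. None of these 5 had an IDR peak and 1, phm, had a pooled peak, against 20.6% and 34.9% of the 5948 coding genes of that length. With 5 genes, counts of 0 and 1 stand near those shares. shd and Cyp18a1 are 3 to 10 kb long, and 1 of the 2 had an IDR peak and both a pooled peak, against 35.4% and 52.5% of 3345 genes. E23, in the class of 10 to 30 kb, had both kinds of peak, as did 60.7% (IDR) and 85.6% (pooled) of the 1314 genes of that class. Its 7 IDR peaks stood above the class median of 1 and the 90th percentile of 5, and 4.19% of the class had as many or more. spok and nvd, which are 30 to 80 kb long, had neither an IDR nor a pooled peak, against 70.8% and 96.8% of the 530 genes of that length with one.

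**Figure D2:**
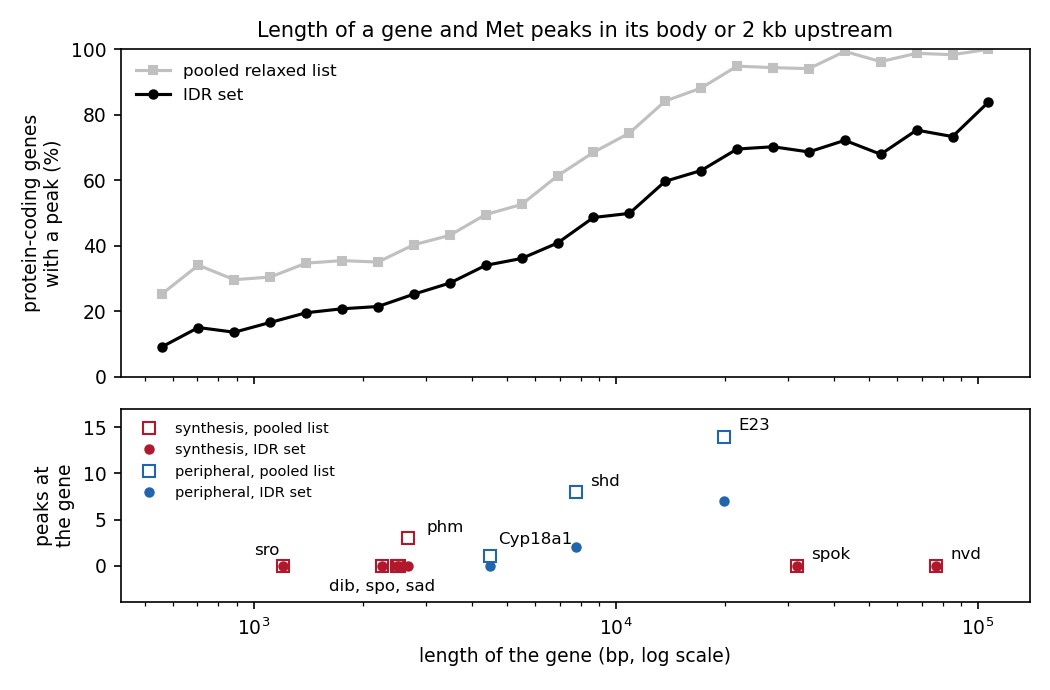
Top, share of protein-coding genes with a Met peak in the body or 2 kb upstream (%), by gene length (bp, log scale), for the pooled list and the IDR set. Bottom, number of peaks at each of the 10 genes against its length: spok and nvd have 0 at lengths where most genes have a peak, and E23 has 7 IDR and 14 pooled peaks.

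The first steps of synthesis are carried out by the enzymes of nvd, sro, spo and spok. nvd encodes a Rieske-type oxygenase that converts cholesterol at the start of the chain, and spok encodes the larval P450 of the next steps, a group of reactions not fully resolved. nvd (3L, 24324866 to 24401655, plus strand, 76790 bp) and spok (3R, 3322810 to 3354486, plus strand, 31677 bp) had no peak in the pooled list or in any of the 3 relaxed replicate lists. Neither had a pooled peak within 50 kb of its body on either side. The nearest pooled summit was 132481 bp from the nvd region and 232698 bp from the spok region, and the nearest IDR summit was 136175 bp from nvd and 859769 bp from spok. Of all coding genes, 105 (0.753%) had no pooled summit within 50 kb. Both genes are known to lie in repeat-rich chromatin near the centromere. Repeats covered 43.4% of the nvd region and 51.6% of the spok region, against 20.1% of the major arms. Among the 125 coding genes with at least 40% of the region in repeats, 20.8% had an IDR peak and 46.4% a pooled peak. The median repeat share of the 105 genes far from any peak was 25.9%, and that of all coding genes was 11.2%. The part of repeats, or of how the authors placed reads in them, in the absence of peaks at nvd and spok was not tested.

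spo encodes the embryonic counterpart of the spok enzyme, and sro encodes a short-chain dehydrogenase/reductase of the same early steps. spo (3L, 5590083 to 5592571, minus strand) and sro (3R, 29794597 to 29795805, plus strand) likewise had no peak in the pooled list or any replicate list. Their surroundings did have peaks: within 50 kb of the gene body, 46 pooled and 16 IDR summits lay around spo and 38 and 17 around sro. The nearest IDR summit outside the region was 12075 bp beyond the spo region on the downstream side (rank 5341, nearest to the start site of Msr-110). For sro it was 4517 bp beyond the region on the upstream side (rank 7212, nearest to the start site of kay, which encodes the Fos subunit of AP-1). Parts of Rnb and kay lie within the region searched for sro, and parts of l(3)psg2 and Alp10 within that of spo, and these too had no peak there.

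The later steps are hydroxylations of the sterol by the P450 enzymes of phm, dib and sad. phm (X, 18685766 to 18688433, plus strand) was the only synthesis gene with a peak in the pooled list. Its strongest peak (18685724 to 18686163, signal 90.3, rank 9283) had its summit 178 bp downstream of the annotated start, in the 5′ UTR, and lay outside the IDR set. The ranks were 14811 in replicate 1, 7912 in replicate 2 and 9317 in replicate 3, a mean of 10680 ± 3646 (SD, n = 3). The peak was thus found in every replicate, but within the strongest 8513 in replicate 2 alone. G+C at its summit was 53.5%. The other peaks of phm, 1671 and 1319 bp upstream (ranks 27358 and 27993), were near the end of the pooled list. Their summits were nearer to the start site of lncRNA:CR44707 than to that of phm. The first had no summit within 250 bp in any replicate, and the second had one in replicate 3 alone, at rank 22133.

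dib (3L, 4062292 to 4064551, plus strand) had no peak in the pooled list or in any replicate, with 21 pooled and 5 IDR summits within 50 kb of its body. The nearest IDR summit was a strong one, of rank 157, 6042 bp beyond the region on the downstream side, and was nearest to the start site of CG32259. The region searched for dib also takes in parts of Ugt305A1 and wit. sad (3R, 11877235 to 11879754, plus strand) had no pooled peak. Replicate 1 alone had 2 relaxed peaks there, the stronger at rank 19062 with a signal of 16.4, and replicates 2 and 3 had none. An IDR summit of rank 3721 lay 2354 bp beyond the sad region, on the upstream side, and was nearest to the start site of CG6959. A window of 5 kb upstream would count that peak for sad.

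Of the peripheral genes, shd encodes the P450 that converts ecdysone into the active hormone. shd (3L, 14614458 to 14622205, plus strand) has 2 annotated start sites, and both of its IDR peaks were within 1 kb of the first. The strongest (14615196 to 14615635, signal 153) had its summit 958 bp downstream of the first start, in an intron. It ranked 5509 in the pooled list and 6038, 5046 and 6308 in replicates 1, 2 and 3, a mean of 5797 ± 665 (SD, n = 3). The second (14613593 to 14614032, signal 146) was 645 bp upstream and ranked 5771 in the pooled list. In replicates 1 and 2 it ranked 5049 and 5238, and in replicate 3 it ranked 8815, just outside the strongest 8513. The third (14613879 to 14614318, signal 97.6), the one with the C-box, was 359 bp upstream and overlapped the second. It ranked 8613 in the pooled list, just below the IDR threshold, and 9580, 12399 and 6877 in replicates 1, 2 and 3. The upstream peaks therefore differed in order between replicates: the one at 645 bp was the stronger in replicates 1 and 2, and the one at 359 bp in replicate 3. The other 5 pooled peaks of shd ranked from 12953 to 25582.

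**Figure D3:**
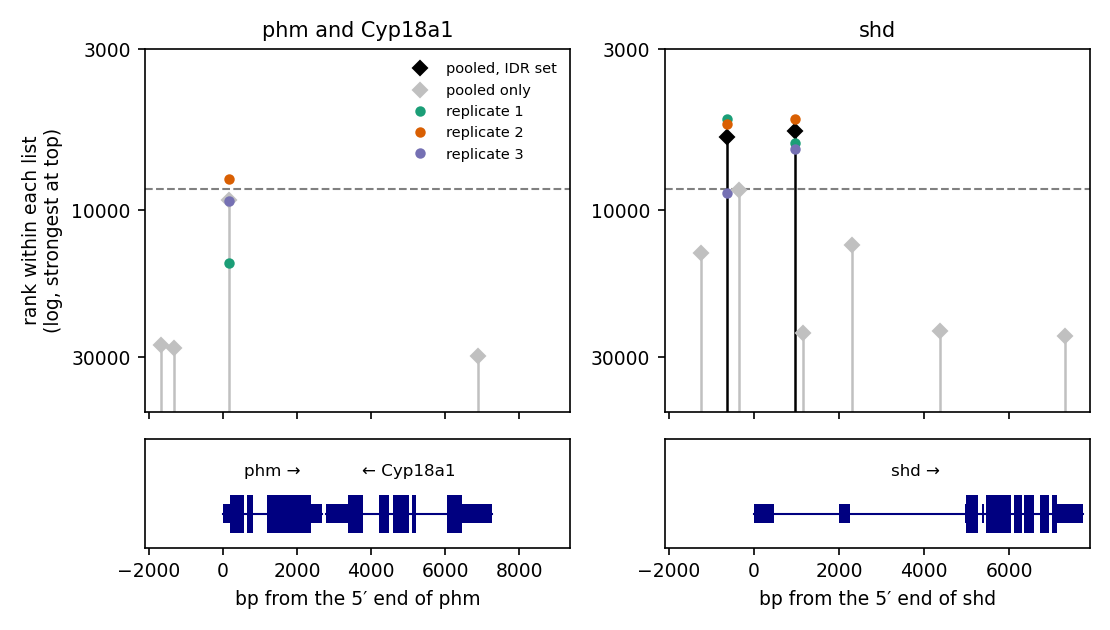
Rank of each pooled peak (diamonds, black in the IDR set and grey outside it; log scale, strongest at the top) against distance from the 5′ end of phm or shd (bp), with replicate ranks (circles) for the strongest phm peak and both shd peaks of the IDR set, and gene models below (tall boxes coding, low boxes untranslated). The dashed line is rank 8513: both black shd peaks stand above it, and the strongest phm peak stands below it in all lists but that of replicate 2.

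Cyp18a1 encodes the P450 that inactivates the hormone by oxidising its side chain. Cyp18a1 (X, 18688538 to 18693042, minus strand) had 1 pooled peak, of rank 29665 and signal 25.2, near the end of the list of 30000. Its summit lay 89 bp downstream of the nearest of 2 annotated start sites, in the 5′ UTR, and no replicate had a summit within 250 bp of it. The relaxed lists of replicates 1 and 3 had 1 peak each elsewhere in the region, at ranks 28557 and 28546, and that of replicate 2 had none. Cyp18a1 and phm are neighbours that face each other, with 104 bp between their ends. The 7 IDR and 23 pooled summits within 50 kb are the same for both, since the window around the pair holds no others. The nearest of these IDR summits, of rank 6960, was nearest to the start site of lncRNA:CR45710 and lay 4745 bp beyond the phm region and 9517 bp beyond that of Cyp18a1.

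E23 encodes an ATP-binding cassette (ABC) transporter that is induced by ecdysone and is thought to pump the hormone out of cells. E23 (2L, 3334875 to 3354829, minus strand, 19955 bp, 1 annotated start site) had 7 IDR peaks, 3.19 per 10 kb against 0.636 per 10 kb of the major arms. All 7 were among the strongest 8513 of each of the 3 replicates. Of these, 2 were upstream and 5 lay in introns.

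The strongest peak of E23, A, had its summit 180 bp upstream of the start, with a signal of 1432. It ranked 154 in the pooled list and 146, 196 and 139 in replicates 1, 2 and 3, a mean of 160 ± 31.1 (SD, n = 3). Peak B, 383 bp upstream, shares the interval 3354842 to 3355337 with A and had a signal of 834. It ranked 516 in the pooled list and 1175, 1559 and 460 in replicates 1, 2 and 3. B was therefore weaker than A in every replicate, and highest in replicate 3. Counted as intervals, the 7 summits form 6.

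The strongest intronic peak (3346144 to 3346482, signal 765) lay 8504 bp downstream of the start. It ranked 603 in the pooled list and 581, 800 and 528 in replicates 1, 2 and 3, a mean of 636 ± 144 (SD, n = 3). The next (3341537 to 3341908, signal 586, 13082 bp downstream) ranked 962 in the pooled list and 834, 973 and 1329 in the replicates. Its summit and that of the peak 15814 bp downstream were nearer to the start site of CG15408 than to that of E23, at 8933 and 6201 bp.

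The remaining IDR peaks of E23 had signals of 456 (3348144 to 3348449, 6520 bp downstream), 346 (3338905 to 3339124, 15814 bp downstream) and 142 (3351579 to 3352018, 3030 bp downstream). The first ranked 1385, 1272 and 1820 in replicates 1, 2 and 3, and the second 1508, 2086 and 3653. The last ranked 7308, 5810 and 5466, the only one of the 7 near the threshold. The signals of the 7 peaks spanned a ratio of 10.1 in the pooled list. Each replicate summit used for them was within 138 bp of the pooled one. The other 7 pooled peaks of E23, outside the IDR set, had signals from 25.8 to 82.1.

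**Figure D4:**
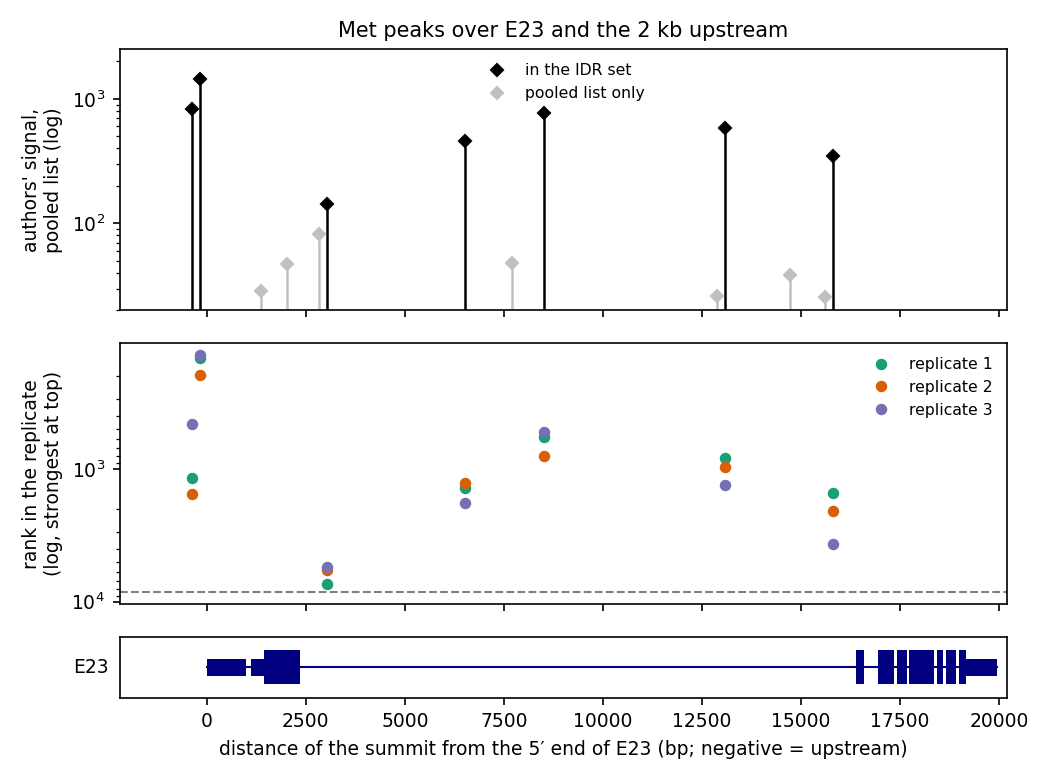
Met peaks of E23 by distance of the summit from the 5′ end (bp, negative upstream): authors' signal in the pooled list (log scale; black in the IDR set, grey outside it), rank of the 7 IDR peaks in each replicate (log scale, strongest at the top; dashed line at rank 8513) and the gene model. The 2 upstream peaks and 4 of the 5 intronic ones rank 3653 or better in every replicate.

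Motif matches occurred at genes without peaks as well. The synthesis regions held 12 E-boxes and 22 C-boxes, and 0 of either lay in a pooled peak. The peripheral regions held 3 E-boxes, 1 of them in a pooled peak at E23, and 9 C-boxes, 1 of them in a pooled peak at shd. Per 10 kb this was 0.898 E-boxes and 1.65 C-boxes in synthesis regions and 0.785 and 2.36 in peripheral regions, and over the major arms 1.23 and 1.98. nvd alone held 5 E-boxes and 14 C-boxes, and spok 5 and 2. The phm region held 1 of each, and dib held neither. A match of these letters is a description of the sequence and not of binding.

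A list of 18 further genes of the pathway was counted by the same rule, with 7 holding an IDR peak and 11 a pooled peak, against the 28.7% and 45.8% of all coding genes given above. Of the 4 genes for sterol supply and electron transfer, Npc1a, Start1, dare and Cyp6t3, 0 had an IDR peak and 1, dare, had a pooled peak. Both transporter genes, Atet (11864 bp) and Oatp74D, had IDR peaks, as did 60.7% of all coding genes of 10 to 30 kb, their length class. Atet encodes an ABC transporter that loads ecdysone into secretory vesicles of the gland, and its strongest peak, 838 bp upstream, ranked 1202 in the pooled list and 1233, 1169 and 1195 in the replicates. Oatp74D encodes the ecdysone importer and had 9 IDR peaks over 24576 bp. The strongest of these, intronic and nearer to the start site of edin, ranked 848 in the pooled list and 838, 822 and 972 in the replicates. Eo, which encodes ecdysone oxidase, had 0 IDR peaks and 1 pooled peak, of rank 14302.

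Of the 11 genes that control the gland, 5 had an IDR peak: Hr4, ftz-f1, usp, EcR and mld. Hr4, for a nuclear receptor that represses synthesis after a pulse, had 16, and its strongest, in an intron, ranked 61 in the pooled list and 68, 64 and 57 in replicates 1, 2 and 3. ftz-f1 encodes a nuclear receptor needed for synthesis genes to be expressed. It had 6, the strongest at rank 1603 and nearer to the start site of lncRNA:CR45938. usp and EcR encode the partners of the ecdysone receptor heterodimer. usp had 3, the strongest 169 bp upstream of its nearest own start site at rank 2038, and EcR had 14, the strongest at rank 2459 and nearest to the start site of a tRNA gene for asparagine. mld encodes a zinc finger protein required for spok and nvd expression and had 4. Its strongest, nearer to the start site of lncRNA:CR46095, ranked 4809 in the pooled list, 3780 and 5398 in replicates 1 and 2, and had no summit within 250 bp in replicate 3. The lengths of Hr4, ftz-f1, EcR and mld were 66017, 50703, 81215 and 38247 bp, lengths at which most coding genes had an IDR peak. The 6 control genes without an IDR peak, Ptth, tor, trk, ouib, vvl and kni, were 882 to 4784 bp long, and 2 of them, vvl and kni, had pooled peaks.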

How the data were processed

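The 3 biological replicates of Met-GFP white prepupae were analysed from the 5 deposited peak lists in dm6: 1 relaxed list a replicate, 1 for the pooled replicates and the IDR set. Lists in dm3 and the control were not used here. Per the listings deposited with each library, each relaxed list was made against a control file. Aligner and caller: not given in the sources used here. Each deposited list gives a signal per peak, which was used to rank peaks within a list, the −log10 of a q-value, which was not used, and the offset of the summit, which set its position. Because signal depends on depth, ranks rather than signals were compared between replicates.

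Genes came from Ensembl release 115 (BDGP6.54) and sequence and repeat masking from RefSeq Release 6. All IDR and pooled peaks lay within the chromosome lengths of that assembly, and coordinates are 1-based. A gene had a peak if a summit lay in its body or the 2 kb upstream. A replicate peak matched a pooled one if its summit was within 250 bp, except where recurrence was recomputed by overlap of intervals. Only peaks and genes on the 6 major arms were counted, and Python 3.11.15, numpy 2.4.6 and pandas 2.3.3 were used. Counting and motif search were checked on simulated data. No test was run. The 10 genes, the pathway list and the motifs were chosen with earlier results of these data known. Genes named in the text are the 10, pathway genes with an IDR peak, the 4 other P450 genes with the strongest IDR peak and genes whose start site is nearer to a summit. Pathway genes without an IDR peak are also named, which the rule does not ask. Genes that overlap a region or lie next to the nearest IDR summit outside it are named beyond that rule. P450 genes were taken by symbol (Cyp, digits and a letter), which leaves out cyclophilins.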

Additional observations from a re-analysis of the deposited data

How the results depend on the processing

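Of 114 values recomputed under other settings, 99 did not move beyond 1.5 times (counts) or 1 SD (ranks). Leaving out 1 of 3 replicates cannot move a mean rank by 1 SD, so those rank values could not have moved. They are no measure of stability. With the IDR set restricted to its stronger 4256 peaks, 1 of the 10 genes, E23, had a peak, and shd did not, so 1 peripheral gene remained, against 19.8% of all coding genes. With 5 kb upstream, the synthesis genes had 1 IDR peak at 1 gene, sad, and 2 of them had a pooled peak. By that window 3 of the 10 genes had an IDR peak, against 36.7% of all coding genes. The strongest peaks of replicate 2 alone, and the relaxed list of replicate 1 alone, chosen after seeing the data, gave 1 synthesis gene with a peak (phm) and 2 (phm and sad). The 9 IDR peaks at peripheral genes became 4 within 1 kb of a start site and 2 without E23, so E23 decides that count. Within 1 kb of a start site, 2 of the 10 genes had an IDR peak, against 22.2% of all coding genes. By gene body alone, 2 of the 10 genes and 14.8% of all coding genes had an IDR peak. With the 2 kb upstream, also 2 of the 10 genes had one, beside 28.7% of all coding genes. With 10 genes, a count of 2 stands near either share. IDR summits with an E-box at the 10 genes numbered 2 over whole peaks (the E23 interval counted for both summits) and 0 by the summits of replicate 1 or of replicate 2. Summits with a GCGTG numbered 2 within 100 bp and over whole peaks. Within 100 bp, 15.7% of all IDR summits had a GCGTG and 1.91% an E-box. Shares over whole peaks were not computed. Peaks were also required to recur, by overlap of intervals, in the lists of any 2 replicates, leaving out each replicate in turn. The counts of IDR peaks and genes at the 10 genes stayed at 9 and 2. Of all coding genes, 24.6% to 25.1% had an IDR peak under these settings. The second shd peak ranked 8815 in replicate 3, outside the strongest 8513 used for IDR peaks. It counted there only by overlap with another peak. The pooled peak of Cyp18a1 was lost, which left 3 of the 10 genes with a pooled peak. No paired analysis was possible because there is 1 group. Peak lists without read counts give no depth, so a gene without a peak is one below the end of a list and not one shown to be unbound.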

Other observations

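Cytochrome P450 genes encode a family of oxidases that act mostly on foreign compounds, fatty acids and hormones. Of the 7 P450 genes among the ecdysteroid genes, 1 (shd) had an IDR peak and 3 (phm, shd and Cyp18a1) a pooled peak. Of the 82 other P450 genes, with a median length of 2098 bp, 8 had an IDR peak (9.76%) and 30 a pooled peak (36.6%). Over all coding genes the shares were 28.7% and 45.8%, and over those of 1 to 3 kb 20.6% and 34.9%. The strongest peak of the other P450 genes was at Cyp6u1, at rank 346, 97 bp upstream of its start but 10 bp from that of Ufsp1, and it ranked 324, 426 and 378 in replicates 1, 2 and 3. Cyp6v1 followed at rank 1245 (362 bp upstream, 1086, 1330 and 1430 in the replicates) and Cyp310a1 at rank 1612 (499 bp upstream, 1679, 1688 and 1568). Cyp4d20 was next at rank 1850 (1014 bp upstream, 2245, 2054 and 1679).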
